A study of Mus musculus with 10 samples.

Results

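A group of 8 long noncoding RNA genes, put together under the name brain-enriched, was described: Meg3, Rian, Mirg, Snhg11, Miat, Malat1, Neat1 and H19. Their probes were found by the RefSeq accession that the scanner files give for each probe. Of the 8 genes, 4 had a matching probe, namely Meg3 with 3 probes and Mirg, Malat1 and Neat1 with 1 probe each. These 4 genes, out of 20144 with a matched probe, and their 6 probes, out of 39429, are described here. No probe accession matched Rian, Snhg11, Miat or H19 in the RefSeq gene table, and these 4 genes were not analysed here. The accessions or names of 12848 probes are not in that table, and a probe of these genes among them would not have been found.

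The samples were hippocampi of adult mice, 5 with a conditional knockout (cKO) of DLK and 5 of DLK wild-type genotype (WT), measured on Agilent 2-colour arrays with 1 mouse per array. DLK, or dual leucine zipper kinase, is the product of Map3k12 and acts upstream of JNK in neurons. Mice of both genotypes ate a tamoxifen diet for 3 weeks, the knockdown being induced by tamoxifen. The sources used here give neither sex nor age in weeks, and name no recombinase or cells in which it acts. Hippocampal RNA was labelled with Cy5, and the Universal mouse reference of Stratagene, a commercial RNA pool, with Cy3 on every array. A value below is the log2 ratio of Cy5 over Cy3, that is of hippocampus over reference. A difference is cKO minus WT. Because no dyes were swapped, a level holds the dye effect, which both genotypes share. Against this reference Meg3 and Mirg read above 0 in both genotypes, while Malat1 and Neat1 read below 0 in both, so the name brain-enriched was not borne out by the ratios of Malat1 and Neat1.

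Meg3, Rian and Mirg lie one after the other in the imprinted Dlk1-Dio3 domain of mouse chromosome 12 and are expressed from the chromosome inherited from the mother. Meg3 is a nuclear RNA, Rian carries small nucleolar RNAs, and Mirg hosts a large cluster of microRNAs, many of them active in neurons. Malat1 and Neat1 are neighbours on chromosome 19. Malat1 collects in nuclear speckles, where splicing factors are stored, and Neat1 is the scaffold on which paraspeckles, another nuclear body, are built. Snhg11 hosts small nucleolar RNAs, Miat is a nuclear RNA of neurons, and H19 is an imprinted RNA beside Igf2.

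The microRNAs are shown because they are what the Mirg transcript carries. The RefSeq tables, of assembly GRCm38.p6, place 10 hairpins and 19 mature microRNAs within Mirg, and 1 hairpin and 3 mature entries within Meg3. Of the Meg3 entries, miR-770-5p and miR-770-3p lie side by side, and miR-1906 lies apart from them (chr12:109544588-109544609). The seed, bases 2 to 8, by which a microRNA pairs with its targets, is in capitals. Among the 19, only miR-453 and miR-496a-5p share a seed. Their sequences, with 4 others of Mirg and 1 of Meg3, all on the plus strand, read as follows.
miR-453 (chr12:109735669-109735692): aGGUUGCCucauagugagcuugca
miR-496a-5p (chr12:109739132-109739152): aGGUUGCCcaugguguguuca
miR-154-5p (chr12:109738438-109738459): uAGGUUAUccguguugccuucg
miR-377-3p (chr12:109740553-109740574): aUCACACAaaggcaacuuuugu
miR-409-3p (chr12:109743204-109743225): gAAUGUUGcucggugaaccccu
miR-410-3p (chr12:109743764-109743784): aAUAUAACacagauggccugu
miR-770-5p of Meg3 (chr12:109563710-109563731): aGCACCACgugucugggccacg

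A promoter window of Meg3 and that of Malat1 are shown. These genes gave the pair of probes of different genes with the highest correlation across arrays, described below. Windows run from 250 bases before to 50 bases into the annotated transcript, and 6 of the 8 genes had at least 1, with 7 windows in all. Both strands were searched for the cAMP response element (CRE) TGACGTCA, its 5-base core TGACG or CGTCA, the AP-1 sites TGAGTCA and TGACTCA, and the TATA motif TATAAA or TTTATA. A CRE was found in 1 of the 7 windows, a window of Meg3, where it begins at position -57 and holds both cores. A further Meg3 window, chr12:109545148-109545447, has 0 CREs, 0 cores and 0 TATA motifs and is not printed. The CRE is present in 1.79% of all 32851 windows in the table. An AP-1 site was found in 0 of the 7 windows, against 5.20% of all windows. The Meg3 window with the CRE also has 2 overlapping TATA motifs, a motif found in 13.6% of windows. The Malat1 window has 3 CRE cores, a motif found in 20.8%. Capitals mark these motifs, and a match of letters is no measurement of binding.
Meg3 (GRCm38.p6, chr12:109540746-109541045, plus strand): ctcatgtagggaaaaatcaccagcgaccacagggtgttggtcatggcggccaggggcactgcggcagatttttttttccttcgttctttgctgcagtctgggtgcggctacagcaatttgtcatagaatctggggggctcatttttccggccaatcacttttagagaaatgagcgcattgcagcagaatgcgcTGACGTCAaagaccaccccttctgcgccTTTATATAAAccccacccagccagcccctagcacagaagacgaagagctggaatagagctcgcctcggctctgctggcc
Malat1 (GRCm38.p6, chr19:5802623-5802922, minus strand): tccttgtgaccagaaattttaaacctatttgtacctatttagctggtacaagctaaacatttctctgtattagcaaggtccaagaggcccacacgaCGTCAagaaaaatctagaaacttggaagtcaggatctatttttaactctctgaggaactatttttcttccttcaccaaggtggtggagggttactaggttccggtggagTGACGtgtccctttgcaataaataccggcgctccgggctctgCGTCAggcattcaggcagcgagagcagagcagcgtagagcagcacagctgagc

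Median Cy5 signal per array was 136 to 188 over a background of 29 to 31, and 69.6% to 76.1% of probes were well above background in Cy5. Map3k12, the targeted gene, read 0.11 to 0.68 in the 5 cKO mice and 1.74 to 2.15 in the 5 WT mice. The difference was -1.41 (SE 0.12, adjusted p = 0.000502 in limma). The lowest value was that of cKO replicate 2, where the Cy3 signal was 314, against 102.5 to 128 on the other arrays. The Cy5 signal there, 390.5, was the highest of the cKO mice. Without that mouse the difference of Map3k12 was -1.31 (SE 0.095). Its 1 probe may or may not lie in the deleted exons, of which the labels say nothing. Of the 3 slides used, the first carried cKO replicates 1, 3, 4 and 5, the second cKO replicate 2 with WT replicates 1, 2 and 4, and the third WT replicates 3 and 5. Genotype can therefore be compared within slide 2 alone, where it rests on 1 cKO mouse. The tissue label was checked against markers: 10 genes of hippocampal principal cells averaged 2.66 in cKO and 2.63 in WT samples, and 10 general neuron genes 4.41 and 4.28. Among markers of other cell types 0 passed the adjusted threshold. At an unadjusted p under 0.05, 8 of 11 choroid plexus, 7 of 10 oligodendrocyte, 4 of 8 meningeal and 3 of 9 vascular genes were higher in cKO samples. So were 1 of 7 inhibitory interneuron, 1 of 10 principal cell, 0 of 10 neuron, 0 of 7 astrocyte and 0 of 6 microglia genes. Over all kept probes 2.78% were higher at that level. The mean over 11 choroid plexus genes (a 12th, Cldn2, was not kept) was 1.09 to 2.51 on cKO arrays and 0.29 to 1.09 on WT arrays, and the mean over 10 oligodendrocyte genes was 3.13 to 3.37 and 2.79 to 3.15. How far the noncoding RNA probes moved with marker lists is given below for Neat1, and for every probe with hippocampal principal cell genes. The part of the lists in the differences was not tested. In whole tissue, fewer cells of a type and less RNA per cell cannot be told apart.

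None of the 6 noncoding RNA probes differed between cKO and WT hippocampus at an adjusted p under 0.05 (Benjamini-Hochberg over all probes), in a limma fit of all 28682 kept probes in which 3 probes, or 0.0105%, passed. All 6 had a Cy5 signal well above background on all 10 arrays, and none was saturated. At an unadjusted p under 0.05 the count was 0 of 6, against 3.82% of all kept probes. The adjusted p of each of the 6 probes was 0.99995. Their differences ran between -0.24 and 0.16, and 5 of the 6 were below 0, as were 13008 of the 28682 kept probes. The 5 include the 3 probes of Meg3, which are not independent of each other.

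**Figure D1:**
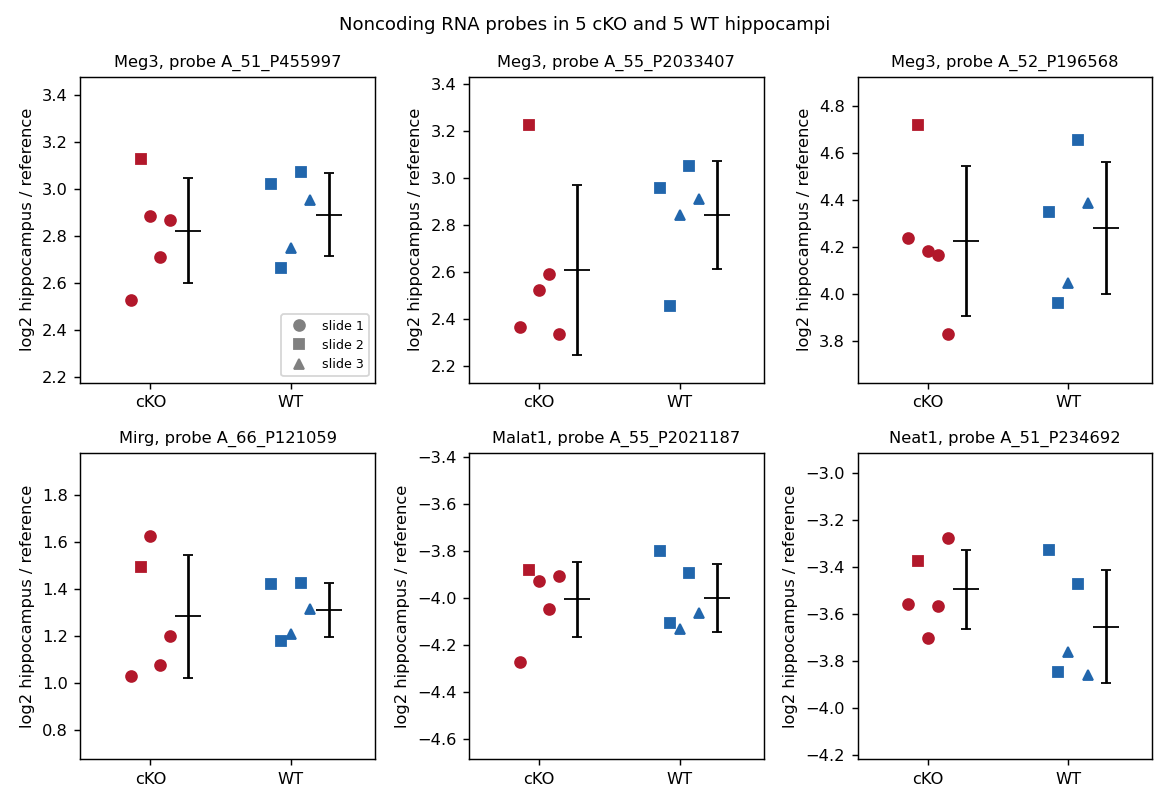
Log2 ratio of hippocampus over reference (vertical axis) for each of the 6 noncoding RNA probes on 5 cKO and 5 WT arrays. Each point is 1 mouse, the marker shape gives the slide, and the bar beside each group is the mean with SD; cKO and WT points overlap in all 6 panels, and cKO replicate 2, the square among the cKO points, is the highest cKO mouse for the 3 Meg3 probes and for Malat1.

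Meg3, an imprinted noncoding RNA that is abundant in neurons, stood well above the reference pool in both genotypes. Its brightest probe, A_51_P455997 (accession NR_027652), read 2.53, 3.13, 2.89, 2.71 and 2.87 in cKO replicates 1 to 5, against 3.02, 2.66, 2.75, 3.07 and 2.95 in WT replicates 1 to 5. The highest mouse was cKO replicate 2 and the lowest cKO replicate 1, so the groups overlapped over the whole WT range. Means were 2.82 ± 0.22 in cKO and 2.89 ± 0.18 in WT samples (SD, n = 5 each). The difference of -0.07 (SE 0.11, 95% interval -0.31 to 0.17) was smaller than the spread between mice, and the interval corresponds to 0.807 to 1.13 times the WT level. Within slide 2 it was 0.21 (SE 0.17).

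The second Meg3 probe of the same accession, A_55_P2033407, gave the largest difference of the 6. It read 2.37, 3.22, 2.52, 2.59 and 2.33 in cKO replicates 1 to 5, against 2.96, 2.45, 2.84, 3.05 and 2.91 in WT replicates 1 to 5. On this probe 4 cKO mice lay below 4 of the WT mice, while cKO replicate 2 lay above all WT mice and WT replicate 2 lay among the low cKO values. The difference was -0.24 (SE 0.16, 95% interval -0.58 to 0.11, unadjusted p = 0.164). Without cKO replicate 2 it was -0.39 (SE 0.11, adjusted p = 0.999), and all 4 remaining cKO arrays lay on slide 1, which held no WT array. With slide as a random block it was -0.34 (SE 0.14). That fit also compares mice between slides, and its fitted correlation within slides was negative, -0.131. Within slide 2, and with slide as a fixed block, the difference had the opposite sign, 0.40 (SE 0.22 and 0.20).

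The third Meg3 probe, A_52_P196568, carries another accession, NR_003633, and had a Cy3 signal near background. It read 4.24, 4.72, 4.18, 4.17 and 3.83 in cKO replicates 1 to 5, against 4.35, 3.96, 4.05, 4.66 and 4.39 in WT replicates 1 to 5. Its Cy3 signal was 58.5 to 77.5 over a local background of 31 to 41.5, and was well above background on 7 of the 10 arrays. The level of this ratio therefore depends on the background correction, and the sign of its difference, -0.05 (SE 0.16), changed with that correction: it was 0.05 with an offset of 16 and 0.20 with plain subtraction. Within slide 2 it was 0.40 (SE 0.24). Highest and lowest again came from cKO arrays, replicates 2 and 5.

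The spread of Meg3 between mice was wide. The pooled SD within genotype was 0.30 for A_55_P2033407, above that of 97.6% of all kept probes, and 0.20 for A_51_P455997, above that of 86.6%. From the lowest to the highest mouse A_55_P2033407 spanned 1.85-fold and A_51_P455997 1.52-fold. Cy5 signal of A_51_P455997 was 2578 to 6667 on cKO arrays and 3343 to 6240 on WT arrays, its Cy3 signal 382.5 to 606. The 3 probes ranked the mice alike at the top, with cKO replicate 2 first and WT replicate 4 second on each. They parted at cKO replicate 5, which had the lowest value for A_55_P2033407 and A_52_P196568 and the sixth highest for A_51_P455997, and whose median Cy5 signal, 136, was the lowest of the 10 arrays. Differences between probes did not separate the genotypes: over the 3 pairs of Meg3 probes, the exact two-sided permutation p of the within-mouse difference was 0.111 to 0.929 (adjusted over the 3 pairs 0.298 to 0.929).

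Mirg, the microRNA host at the far side of the same domain, read above the reference on every array. Probe A_66_P121059 (NR_028265) read 1.03, 1.49, 1.62, 1.07 and 1.20 in cKO replicates 1 to 5, against 1.42, 1.18, 1.21, 1.43 and 1.31 in WT replicates 1 to 5. The WT mice filled the middle of the range, with 2 cKO mice above all of them and 2 below all of them. Means were 1.28 ± 0.26 in cKO and 1.31 ± 0.12 in WT samples (SD, n = 5 each), a difference of -0.03 (SE 0.11, 95% interval -0.27 to 0.22), and 0.15 within slide 2 (SE 0.13). The array measured the host transcript, and the mature microRNAs printed above were not measured.

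Malat1, the noncoding RNA of nuclear speckles, read below the reference on every array. Probe A_55_P2021187 (NR_002847) read -4.27, -3.88, -3.93, -4.05 and -3.91 in cKO replicates 1 to 5, against -3.80, -4.11, -4.13, -3.89 and -4.07 in WT replicates 1 to 5. The groups overlapped, with only cKO replicate 1 outside the WT range. Means were -4.01 ± 0.16 in cKO and -4.00 ± 0.15 in WT samples (SD, n = 5 each), and the difference was -0.01 (SE 0.09, 95% interval -0.20 to 0.19), and 0.054 within slide 2 (SE 0.14). Its Cy5 signal of 537.5 to 705 on cKO arrays and 511 to 755.5 on WT arrays stood against a Cy3 signal of 8240 to 9874.5.

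Neat1, the scaffold of paraspeckles, was the only one of the 6 probes with a positive difference. Probe A_51_P234692 (NR_003513) read -3.56, -3.37, -3.70, -3.56 and -3.27 in cKO replicates 1 to 5, against -3.33, -3.85, -3.76, -3.47 and -3.86 in WT replicates 1 to 5. The highest mouse was cKO replicate 5 and the 3 lowest were WT, but WT replicates 1 and 4 lay among the cKO values. Means were -3.49 ± 0.17 in cKO and -3.65 ± 0.24 in WT samples (SD, n = 5 each). The difference of 0.16 (SE 0.11, 95% interval -0.09 to 0.41, unadjusted p = 0.185) did not pass, and its interval corresponds to 0.941 to 1.33 times the WT level. It kept its sign in the 26 alternatives run, from 0.06 to 0.24, and was 0.17 within slide 2. Across the 10 arrays Neat1 moved with some marker lists: r was 0.765 with the mean of the oligodendrocyte genes (rho = 0.758, permutation p = 0.00999 and 0.0146), 0.781 with inhibitory interneuron genes (rho = 0.770, permutation p = 0.0083 and 0.0121) and 0.574 with choroid plexus genes (rho = 0.455, permutation p = 0.082 and 0.19). After slide means were subtracted these were 0.755, 0.833 and 0.485. Without the 2 mice farthest from the median of each list they were 0.553, 0.593 and 0.0994. Of 54 such relations, of 6 probes with 9 lists, computed after the data were seen, 0 had an adjusted p of r under 0.05. For Neat1 with the 3 lists it was 0.27, 0.27 and 0.566. A positive r of Neat1 was not particular to these 3 lists. It was 0.578 with microglia, 0.461 with vascular, 0.374 with astrocyte, 0.333 with meningeal and 0.247 with neuron genes. Mirg had r = -0.682 with hippocampal principal cell genes (rho = -0.770, permutation p = 0.0323 and 0.0129, adjusted p of r 0.566). With that list Malat1 had -0.604, Meg3 A_51_P455997 -0.519, A_55_P2033407 -0.304, A_52_P196568 -0.244 and Neat1 -0.352. Without WT replicate 5 and cKO replicate 4 these were -0.843, -0.749, -0.815, -0.585, -0.475 and -0.133. With all 10 arrays and slide means subtracted they were, in the same order, -0.637, -0.443, -0.398, -0.16, 0.0096 and -0.191.

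**Figure D2:**
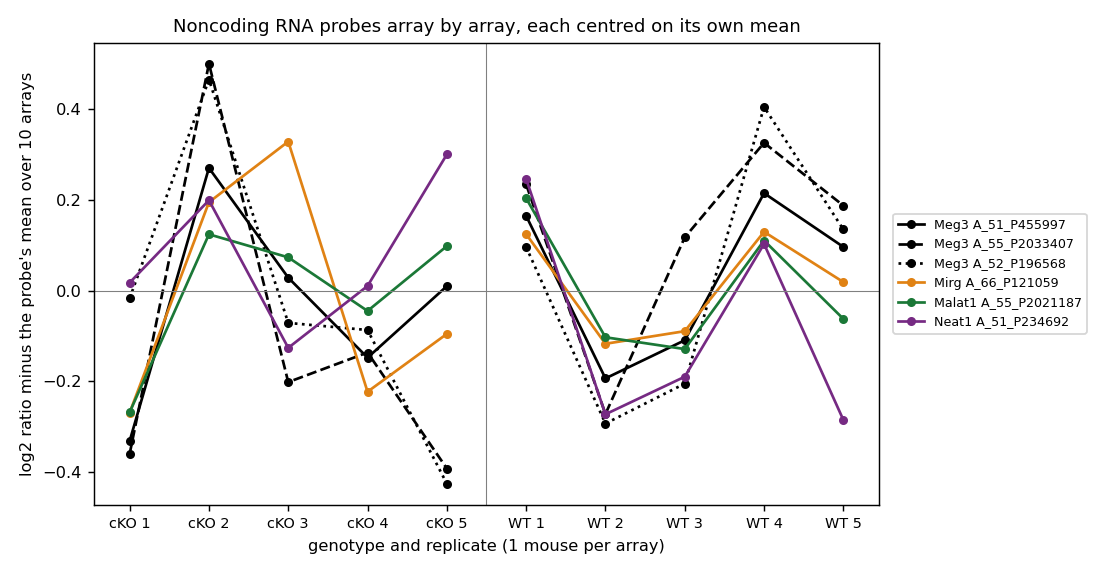
Log2 ratio of each noncoding RNA probe minus its mean over the 10 arrays (vertical axis), with arrays by genotype and replicate (horizontal axis) and 1 line per probe. Replicates have no order, and lines join the points of 1 probe for legibility; the Meg3, Mirg and Malat1 lines are above 0 together on cKO replicate 2, WT replicate 1 and WT replicate 4 and below 0 together on cKO replicate 1, cKO replicate 4 and WT replicate 2.

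Across the 10 mice, the probes moved together in part. Of the 15 pairs of the 6 probes, 4 had a Pearson correlation with an adjusted p under 0.05 (two-sided permutation test of 100000 draws, adjusted over the 15 pairs, a test added after the data were seen). Among Meg3 probes, A_55_P2033407 with A_52_P196568 had r = 0.834 (rho = 0.818, permutation p = 0.00262 and 0.00592) and A_51_P455997 with A_55_P2033407 had r = 0.793 (rho = 0.818, permutation p = 0.00866 and 0.00598). Their adjusted p of r was 0.0196 and 0.0325. Of different genes, Meg3 A_51_P455997 with Malat1 had r = 0.861 (rho = 0.830, permutation p = 0.00164 and 0.00454, adjusted p of r 0.0196), and the same Meg3 probe with Mirg had r = 0.795 (rho = 0.855, permutation p = 0.00707 and 0.0029, adjusted p of r 0.0325).

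These relations were as strong after the mean of each genotype was subtracted, with r = 0.871 for Meg3 and Malat1 and 0.797 for Meg3 and Mirg. Without cKO replicates 1 and 2, the 2 mice farthest from the median of Meg3, r was 0.759 with Malat1, 0.669 with Mirg and 0.645 with Meg3 A_55_P2033407, and without cKO replicates 2 and 5 the first Meg3 pair had r = 0.675. After the mean of each slide was subtracted, a step chosen after the data were seen that leaves 7 degrees of freedom, r was 0.899 for Meg3 A_51_P455997 with Malat1, 0.766 with Mirg and 0.747 with Meg3 A_55_P2033407, and 0.858 for the first Meg3 pair. The relation of Meg3 with the other genes differed between its probes. With Malat1, A_55_P2033407 had r = 0.482 and A_52_P196568 had r = 0.355, and with Mirg they had r = 0.542 and 0.511, none of which passed. Mirg with Malat1 had r = 0.732 (rho = 0.661, permutation p = 0.0175 and 0.0437, adjusted p of r 0.0525), and 0.696 without cKO replicates 1 and 3. Neat1 correlated with its neighbour Malat1 at r = 0.617 (rho = 0.685, permutation p = 0.0587 and 0.0348, adjusted p of r 0.126). All points share the reference RNA and the normalisation of their array.

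By the same measure, the genes most like each noncoding RNA were sought among 16172 named genes with 1 probe each, as a description with no test. For Meg3 A_51_P455997 they were Pisd-ps3, a pseudogene (r = 0.952 over 10 arrays), B3galnt2, a glycosyltransferase gene (0.915), and Ttc14 (0.909). For Mirg they were the zinc finger gene Zfp111, the immune receptor gene Pilrb2 (0.909 each) and Rgs6, a regulator of G protein signalling (0.902). For Malat1 they were Etv6, an ETS transcription factor (0.950), Chrdl1, a secreted BMP antagonist (0.879), and the amylase gene Amy1 (0.874). For Neat1 they were Rbbp8, a DNA repair gene (0.947), Fap, a membrane protease (0.946), and Nutf2, a nuclear import factor (0.944). An r over 0.9 was reached by 6 genes with Meg3, 4 with Mirg, 1 with Malat1 and 13 with Neat1. The 12 genes named here differed between genotypes by -0.07 to 0.32.

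The Dlk1-Dio3 domain was then read from one end to the other, as far as accession matches place probes in it. The array has 10 probes for 7 of its genes, of which 9 were kept. Dlk1, which encodes a transmembrane relative of Notch ligands and is expressed from the father's copy, stood below the reference on both of its probes. Probe A_66_P117477 averaged -5.25 ± 0.16 in cKO and -5.15 ± 0.17 in WT samples (SD, n = 5 each), and the difference was -0.09 (SE 0.09). Probe A_55_P2105371 averaged -2.72 ± 0.06 in cKO and -2.73 ± 0.09 in WT samples, and its difference was 0.0055 (SE 0.06). Rtl1, a gene derived from a retrotransposon and paternally expressed, was not well above background in Cy5 on any array, with signals of 33 to 44. Of 2 noncoding RNA genes named here after their values were seen, 6430411K18Rik lies between Meg3 and Mirg, and its difference was -0.08 (SE 0.07) around means of 0.44 in cKO and 0.52 in WT samples. The other, Dio3os, is antisense to Dio3 and averaged 0.03 in cKO and -0.04 in WT samples, a difference of 0.07 (SE 0.06).

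Dio3, the deiodinase that inactivates thyroid hormone, had the widest spread of the domain. Probe A_55_P2091468 read 1.17, 1.13, 1.94, 0.89 and 0.82 in cKO replicates 1 to 5, against 0.79, 2.05, 2.37, 1.80 and 1.54 in WT replicates 1 to 5. WT replicate 1 was the lowest mouse and cKO replicate 3 lay among the higher WT mice, so the groups overlapped. Means were 1.19 ± 0.44 in cKO and 1.71 ± 0.60 in WT samples (SD, n = 5 each). The difference was -0.52 (SE 0.27, 95% interval -1.11 to 0.07, unadjusted p = 0.0779) and did not pass. Of the 12 kept genes of this domain and its flanks, 0 passed and 0 had an unadjusted p under 0.05. The smallest p belonged to Ppp2r5c, a phosphatase subunit gene (0.13, SE 0.06, unadjusted p = 0.0545), followed by Dio3 and by Begain, a postsynaptic protein gene (0.10, SE 0.07). The median difference of the 12 was 0.05, against 0.0079 over all kept probes. Of the domain itself the 12 hold Dlk1 and Dio3, and the others are flanking genes. With all 10 arrays, the kept probes of the domain had differences below 0, save those of Dio3os (0.07) and Dlk1 A_55_P2105371 (0.0055).

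**Figure D3:**
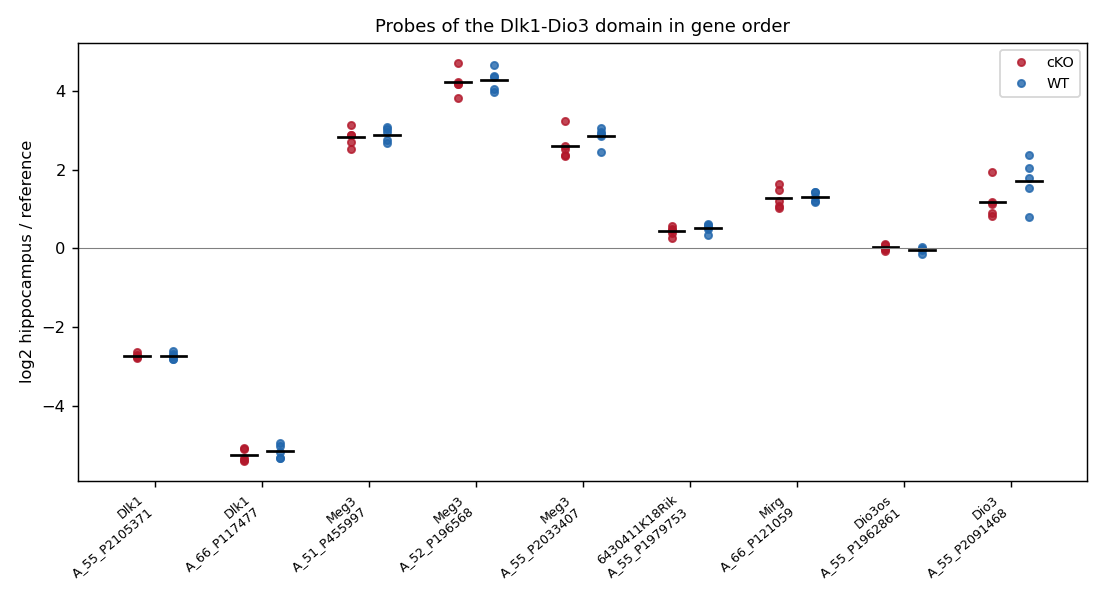
Log2 ratio of hippocampus over reference (vertical axis) for the 9 kept probes of the Dlk1-Dio3 domain, placed in gene order (horizontal axis, not to scale), with 1 point per mouse, cKO left of WT, and a line at each group mean. Dlk1 lies below 0 and Meg3, Mirg and Dio3 above it, and cKO and WT points overlap at every probe.

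Imprinted genes beyond this domain, including the neighbourhood of H19 on chromosome 7, were read as a second group. Of 24 genes 22 were kept and 0 passed, with a median difference of 0.0068, and 2 had an unadjusted p under 0.05, 1 in each direction, where 2.78% of all kept probes were higher and 1.04% lower at that level. Cdkn1c, a growth inhibitor that is maternally expressed, averaged 2.12 ± 0.37 in cKO and 1.62 ± 0.32 in WT samples (SD, n = 5 each), a difference of 0.50 (SE 0.18, unadjusted p = 0.0164). Only 2 of 5 cKO mice lay above all WT mice. Within slide 2, on 1 cKO mouse, Cdkn1c differed by 0.67. Kcnq1ot1, a noncoding RNA of the same imprinted cluster, averaged -1.78 in cKO and -1.60 in WT samples, a difference of -0.18 (SE 0.07, unadjusted p = 0.0315), but -0.0016 within slide 2 and with slide as a fixed block. Kcnq1, the potassium channel gene it overlaps, differed by 0.15 (SE 0.08).

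For Malat1 and Neat1, the proteins of the bodies they occupy were read. Of 16 paraspeckle protein genes 0 passed and 0 had an unadjusted p under 0.05, with a median difference of 0.06 and a range of -0.12 to 0.17. The core proteins Sfpq and Nono, which bind Neat1, differed by -0.01 (SE 0.13) and 0.05 (SE 0.09), and Pspc1, the third of this family, by 0.11 (SE 0.07). Taf15, which encodes an RNA-binding protein, was at 0.17 (SE 0.10), and Cpsf6, a 3' end processing factor, at -0.12 (SE 0.08). Of 19 kept genes of nuclear speckles and splicing 0 passed and 1 had an unadjusted p under 0.05, with a median of -0.03. That gene was Celf3, a splicing regulator of neurons, which averaged 6.76 in cKO and 6.56 in WT samples (difference 0.20, SE 0.09, unadjusted p = 0.0392), but -0.04 within slide 2. U2af2, which recognises 3' splice sites, differed by -0.13 (SE 0.06) and the splicing factor gene Srsf5 by 0.23 (SE 0.16).

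The genes beside Malat1 and Neat1 on chromosome 19 gave 3 of 14 kept genes with an unadjusted p under 0.05, all higher in cKO samples, where 2.78% of all kept probes were higher at that level, and 0 that passed. Frmd8, a membrane adaptor gene close to Neat1, averaged -0.38 ± 0.18 in cKO and -0.66 ± 0.22 in WT samples (SD, n = 5 each), a difference of 0.28 (SE 0.11, unadjusted p = 0.028). Rela, an NF-kappaB subunit gene, differed by 0.13 (SE 0.06, unadjusted p = 0.037), and 4 of 5 cKO mice lay above all WT mice. Cdc42ep2, which encodes an effector of the GTPase Cdc42, differed by 0.18 (SE 0.08, unadjusted p = 0.0437). With arrays centred on their median in place of loess, Rela differed by 0.030 (SE 0.08) and Cdc42ep2 by 0.092 (SE 0.10). Within slide 2, which rests on 1 cKO mouse, Frmd8, Rela and Cdc42ep2 differed by 0.25, 0.15 and 0.28. The median of the 14 was 0.03. Beside Miat and Snhg11, which had no matched probe themselves, 12 neighbours were kept and 0 had an unadjusted p under 0.05; the smallest p belonged to Slc32a1, the vesicular GABA transporter (0.12, SE 0.06), Arhgap40 (-0.11, SE 0.07) and Crybb1, a crystallin gene (-0.10, SE 0.08).

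**Figure D4:**
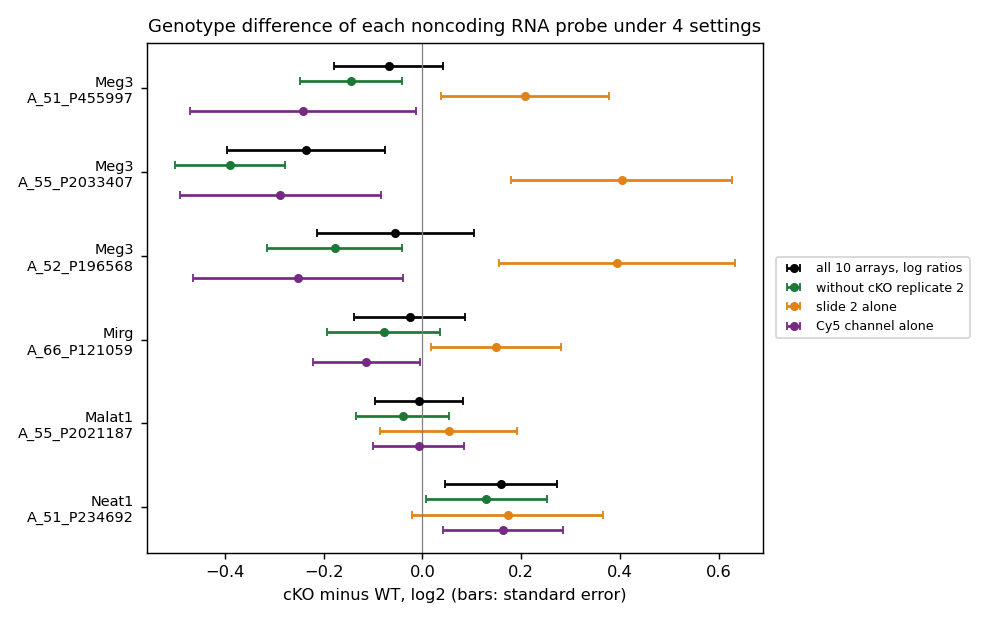
Difference cKO minus WT on the log2 scale with its standard error (horizontal axis) for each of the 6 noncoding RNA probes under 4 settings. The Meg3 and Mirg differences lie below 0 with all 10 arrays and without cKO replicate 2 and above 0 within slide 2, while Neat1 stays above 0 in all 4 settings.

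Noncoding RNA genes outside the 8 were read the same way. Of 35 names of noncoding RNA genes listed for comparison, 20 genes had a matched probe, and all 20 were kept. Of these 0 passed and 0 had an unadjusted p under 0.05, with differences of -0.16 to 0.17 and a median of 0.0093. Kcnq1ot1, read above with the imprinted genes (unadjusted p = 0.0315), is not among the 20. The smallest p belonged to Mir22hg, the host of a microRNA (0.17, SE 0.08), Peg13, an imprinted RNA of the brain (0.13, SE 0.06), and Pantr1, an RNA expressed beside the neuronal transcription factor gene Pou3f3 (0.14, SE 0.08). Peg13 and Pantr1 stood far above the reference, at 4.39 and 5.83 in cKO and 4.27 and 5.69 in WT samples. The 7 snoRNA host genes on the array, Snhg1, Snhg3, Snhg6, Snhg7, Snhg10, Snhg12 and Snhg17, differed by -0.05 to 0.09. Over all 270 kept probes that RefSeq assigns to long noncoding RNA genes, 0 passed and 13, or 4.81%, had an unadjusted p under 0.05, against 3.82% of all kept probes. Within-genotype SD had a median of 0.20 over the 6 probes, 0.12 over the 270 and 0.12 over all kept probes.

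**Figure D5:**
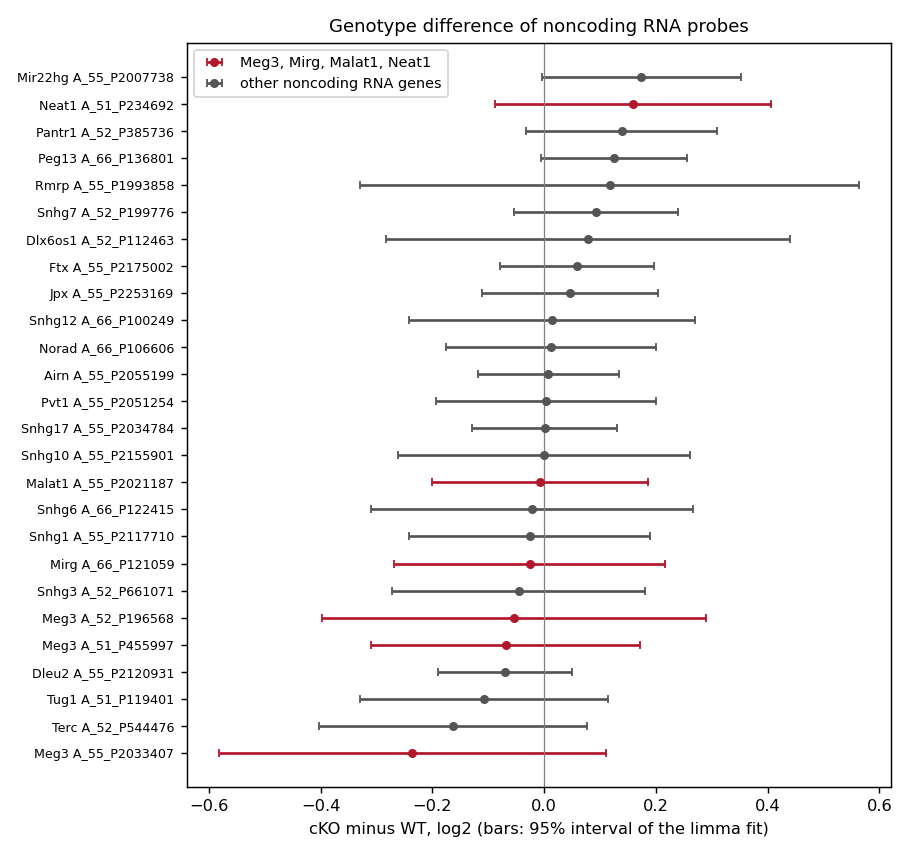
Difference cKO minus WT on the log2 scale with its 95% interval (horizontal axis) for the 6 probes of Meg3, Mirg, Malat1 and Neat1 and for 20 other noncoding RNA genes, ordered by difference. All 26 intervals include 0, from Meg3 A_55_P2033407 at -0.24 to Mir22hg at 0.17. Kcnq1ot1, read with the imprinted genes, is not shown.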

How the data were processed

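Spot intensity values in both channels, not normalised, and a log10 ratio of processed signals come from the deposited scanner files, made by the authors with Feature Extraction 11.0.1.1 per the file headers. The authors' deposited value table holds log2 ratios. Per the submitters' processing notes limma was used, with no settings given. This table correlated at 0.99997 or above with the ratios computed here and served as an alternative.

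Here, limma 3.58.1 in R 4.3.3 corrected background by normexp with an offset of 50 on median signals, leaving out spots marked non-uniform, and loess normalised the ratios within arrays (control spots at weight 0). The offset pulls ratios of dim spots towards 0. Spots of a probe were averaged without marked outliers. Of 39429 probes, 28682 with Cy5 well above background on at least 5 of 10 arrays were kept. Each probe was tested with lmFit and eBayes, two-sided, with Benjamini-Hochberg adjustment over all kept probes. All p-values named unadjusted or adjusted for 1 probe come from this limma fit, whose code was first tested on simulated data. Arrays limit precision by their number.

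Probe accessions, versions dropped, were looked up in a RefSeq table of GRCm38.p6, which named 26581 probes, or 67.4%. The array headers name build mm9, so table coordinates accompany printed sequences only. Genes of the context lists were represented by their brightest probe. Named were all matched probes, Map3k12, the 3 genes most correlated with each noncoding RNA, and the 3 smallest p of each context list. The noncoding RNAs and lists were chosen with earlier results of these data known. The replicate numbers of the labels did not pair the mice: deviations of same-numbered mice correlated at -0.56 to 0.16. One array per mouse was available, and nothing states whether litters were shared.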

Additional observations from a re-analysis of the deposited data

Results flagged for a closer look

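Among 64 groups of 5 mice (each named probe in each genotype), 3 had 1 mouse far from the others, its gap to the nearest mouse taking over 0.71 of the whole range. About 1 in 20 groups would be so marked by chance. Of the 12 groups of noncoding RNA probes described above 1 was among them: Meg3 probe A_55_P2033407 read 3.22 in cKO replicate 2, where the other 4 cKO mice read 2.33 to 2.59, and the gap was 0.713 of the range.

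The other 2 were Srsf5, the splicing factor gene, at -1.15 in cKO replicate 3 against -0.70 to -0.55 in the other cKO mice, and the noncoding RNA Pantr1, at 5.54 in WT replicate 5 against 5.70 to 5.75 in the other WT mice.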

How the results depend on the processing

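Across 26 alternatives the 6 noncoding RNA probes gave 154 values, of which 125 kept their direction, 29 turned it and 0 passed the threshold. Meg3 A_52_P196568 turned to 0.050 with an offset of 16, 0.20 with plain subtraction, 0.077 with the processed signals, 0.27 with all spots in the background fit, 0.052 with array weights, and 0.40 with slide as a fixed block and within slide 2. Slide as a fixed block and slide 2 alone also turned Meg3 A_51_P455997 (0.21), Meg3 A_55_P2033407 (0.40), Mirg (0.15) and Malat1 (0.054). For every probe both settings give the same estimate, that of cKO replicate 2 against the WT mice of slide 2. They are counted separately among the turned values. With slide as a random block, which also compares mice between slides, all 6 kept their direction. The values were -0.12 for Meg3 A_51_P455997, -0.34 for A_55_P2033407, -0.14 for A_52_P196568, -0.064 for Mirg, -0.034 for Malat1 and 0.13 for Neat1. With all spots Meg3 A_51_P455997 was at 0.033 and Mirg at 0.030, and with scaling between arrays Malat1 was at 0.074. Leaving out 1 mouse at a time gave -0.14 to 0.0056 for Meg3 A_51_P455997, -0.39 to -0.17 for A_55_P2033407, -0.18 to 0.045 for A_52_P196568, -0.11 to 0.038 for Mirg, -0.041 to 0.059 for Malat1 and 0.10 to 0.24 for Neat1. Signs turned without cKO replicate 1 (Meg3 A_51_P455997, Mirg, Malat1), cKO replicate 4 (Mirg, Malat1), cKO replicate 5 (Meg3 A_52_P196568), WT replicate 1 (Mirg, Malat1) and WT replicate 4 (Meg3 A_52_P196568, Mirg, Malat1). The cause of these turns was not tested.

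With the replicate block, 2 probes passed, the difference of Map3k12 stayed as reported, -1.41 (adjusted p = 0.00813), and no call of a noncoding RNA changed. Map3k12 lost its call with all spots in the background fit (-1.26, adjusted p = 0.967) and with the Cy5 channel alone (-1.18, 0.0753). Its difference was -1.46 to -1.31 with 1 mouse left out. Within slide 2 it was -1.80 and also lost its call, in a comparison that rests on cKO replicate 2 and its high Cy3 signal. The count of probes past the threshold, 3 as reported, was 1 with all spots, 1 with the Cy5 channel alone, 1 with 1 probe per gene, 0 within slide 2 and 2 to 4 with 1 mouse left out. At an unadjusted p under 0.05 there were 1095 probes, against 715 with median centring, 714 with Cy5 alone, 1678 with no filter on dim probes, 3066 with array weights, 2297 with slide as a random block (fitted correlation -0.131) and 2388 within slide 2. Of the genes of the lists, Begain (-0.046), Kcnq1 (-0.010), Cpsf6 (0.042), Celf3 (-0.037) and Pantr1 (-0.041) turned with slide as a fixed block and within slide 2, Pantr1 with Cy5 alone (-0.064), Crybb1 with plain subtraction (0.041) and with all spots (0.016), Arhgap40 with the processed signals (0.18) and Slc32a1 with scaling (-0.0041). Without 1 mouse, Srsf5 was 0.11 (WT replicate 2), Pantr1 0.073 (cKO replicate 5) and Cpsf6 -0.060 (WT replicate 3). The low Cy3 signal of Meg3 A_52_P196568 limits its ratio.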
